A study of Mus musculus with 6 samples.

Results

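The regulators described here are 10 genes that write, copy, erase or read chemical marks on DNA and on histones, chosen by their names: *Dnmt1*, *Dnmt3a*, *Dnmt3b*, *Tet1*, *Tet2*, *Tet3*, *Uhrf1*, *Asxl1*, *Ezh2* and *Bmi1*. All 10 were found among the 36976 genes listed with FPKM values (fragments counted on a gene, scaled to its length and to the depth of the library), and all 10 were among the 24689 genes that were expressed highly enough to be tested. RNA-Seq libraries were made from long-term (LT) CML stem cells, sorted as CD150+CD48-CD135- Lineage-Sca-1+cKit+ bone marrow cells, from mice with a CML-like disease (tet-CML-affected). Replicates 1, 2 and 3 were *Gdpd3*+/+ and replicates 5, 6 and 7 *Gdpd3*-/-. *Gdpd3* encodes a lysophospholipase D enzyme. Both groups were C57BL/6 mice carrying *SCL-tTA* and *TRE-BCR-ABL1*, in which the *BCR-ABL1* oncogene was switched on by doxycycline withdrawal at 5 weeks after birth and the cells were taken 5 weeks later. Its expression therefore depends on the *SCL* regulatory sequence, which is active in stem and progenitor cells, and the *Gdpd3*-/- mice come from a genome-edited line with a 5 bp disruption. RNA came from 22 male and 12 female *Gdpd3*+/+ mice, and from 5 *Gdpd3*-/- mice of each sex. How the mice were divided among the libraries is not stated, so p-values measure only the spread between these libraries, and the sex balance and the genotype cannot be told apart.

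Methyl groups on cytosines that precede guanines (CpG sites) are laid down by the de novo DNA methyltransferases Dnmt3a and Dnmt3b. They are copied to the new strand at replication by Dnmt1, which Uhrf1 brings to hemimethylated DNA. Tet1, Tet2 and Tet3 oxidise 5-methylcytosine, a step towards its removal. Ezh2 is the catalytic subunit of Polycomb repressive complex 2 (PRC2), which methylates histone H3 at lysine 27. Bmi1 belongs to Polycomb repressive complex 1 (PRC1), which ubiquitinates histone H2A, and is known for its role in stem cell self-renewal. Asxl1 activates the deubiquitinase Bap1, which removes that ubiquitin. The human counterparts of *Dnmt3a*, *Tet2*, *Asxl1* and *Ezh2* are known for mutations in myeloid leukaemia and related disorders.

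The members lie on 7 chromosomes in the mm9 models of the deposited table. *Dnmt3a* (ENSMUSG00000020661.9, chr12:3806007-3914443, forward strand) has the longest model, with 16642 exonic bases from 18 transcripts. *Dnmt3b* (ENSMUSG00000027478.9) lies at chr2:153475186-153513466 and *Asxl1* (ENSMUSG00000042548.6) nearby at chr2:153171581-153229743. *Tet3* (ENSMUSG00000034832.8, chr6:83312367-83391672, reverse strand) has 11086 exonic bases, *Tet2* 9203 and *Tet1* 14710. *Dnmt1* (ENSMUSG00000004099.8) lies at chr9:20711650-20757317 and *Uhrf1* (ENSMUSG00000001228.8) at chr17:56442744-56462909. Exons shared with another gene were few. *Dnmt3a* shared 133 bases with *Dnmt3aos*, *Asxl1* 197 bases with *2500004C02Rik* and *Ezh2* 174 bases with *Gm17629*, each on the opposite strand. No source used here states whether counting used the strand.

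The sequences around the annotated start of transcription are printed for 5 members, 3 that hold a site linked to S phase and the pair with the largest positive differences between the genotypes. RefSeq entries on GRCm38.p6, with 250 bases before and 50 after each annotated start, were matched by symbol for all 10 members (15 starts). The letters TTTCGCGC, TTTGGCGC or TTTCCCGC, forms of the site read by E2F factors, which drive genes of S phase, were searched on both strands. At least one of these forms was present in 1.85% of all 32851 RefSeq start regions, and among the members in 1 start region each of *Dnmt1*, *Uhrf1* and *Ezh2*. Matches are shown in capitals, 5′ to 3′ on the strand of the gene, and no matches overlapped. The *Dnmt1* region is chr9:20952574-20952873, the *Uhrf1* region chr17:56304063-56304362 and the *Ezh2* region chr6:47594981-47595280.
Dnmt1: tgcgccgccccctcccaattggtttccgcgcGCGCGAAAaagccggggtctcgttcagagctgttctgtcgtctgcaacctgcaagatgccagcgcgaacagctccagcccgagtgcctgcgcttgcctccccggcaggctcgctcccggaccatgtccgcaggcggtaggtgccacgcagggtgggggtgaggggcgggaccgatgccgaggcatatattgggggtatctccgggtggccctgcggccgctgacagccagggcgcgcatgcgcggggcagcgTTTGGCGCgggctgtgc
Uhrf1: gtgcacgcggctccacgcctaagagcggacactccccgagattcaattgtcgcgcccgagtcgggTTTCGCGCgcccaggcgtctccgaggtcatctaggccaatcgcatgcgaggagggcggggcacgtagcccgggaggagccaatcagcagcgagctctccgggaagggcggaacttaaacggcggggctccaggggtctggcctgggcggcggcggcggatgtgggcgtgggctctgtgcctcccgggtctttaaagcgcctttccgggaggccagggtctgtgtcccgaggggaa
Ezh2: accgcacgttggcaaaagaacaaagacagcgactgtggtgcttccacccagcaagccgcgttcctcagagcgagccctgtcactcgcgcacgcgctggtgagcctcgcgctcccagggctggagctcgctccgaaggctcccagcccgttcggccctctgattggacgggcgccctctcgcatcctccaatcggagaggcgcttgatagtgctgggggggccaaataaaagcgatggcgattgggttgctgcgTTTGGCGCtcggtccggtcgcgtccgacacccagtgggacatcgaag

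None of the 3 forms was found in the start regions of the other members. The regions of *Dnmt3a* (chr12:3806910-3807209) and *Tet3* (chr6:83441629-83441928) are shown with their CpG sites in capitals. *Dnmt3a* had 47 CpG sites in these 300 bases, more than 98.6% of all start regions held. The other annotated starts of *Dnmt3a*, not shown, had 46 and 18. *Tet3* had 22 and *Tet2*, not shown, had 57, against a median of 7 over all start regions.
Dnmt3a: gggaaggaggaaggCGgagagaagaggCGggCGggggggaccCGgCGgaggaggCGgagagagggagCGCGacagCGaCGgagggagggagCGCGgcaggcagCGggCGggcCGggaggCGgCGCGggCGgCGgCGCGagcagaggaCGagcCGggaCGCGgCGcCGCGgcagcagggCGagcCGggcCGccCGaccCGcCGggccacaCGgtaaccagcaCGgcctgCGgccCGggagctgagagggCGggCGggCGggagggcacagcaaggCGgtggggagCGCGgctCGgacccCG
Tet3: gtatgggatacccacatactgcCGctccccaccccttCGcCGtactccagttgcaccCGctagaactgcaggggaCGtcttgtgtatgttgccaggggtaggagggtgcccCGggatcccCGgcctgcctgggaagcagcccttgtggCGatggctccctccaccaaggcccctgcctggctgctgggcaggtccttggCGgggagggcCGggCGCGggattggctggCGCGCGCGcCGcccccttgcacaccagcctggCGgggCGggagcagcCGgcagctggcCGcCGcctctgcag

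*Gdpd3*, the disrupted gene, checked the labels. Its FPKM was 7.30, 3.29 and 2.95 in *Gdpd3*+/+ and 0.110, 0.0129 and 0.681 in *Gdpd3*-/- libraries, so the groups did not overlap (log2 fold change −4.0, adjusted p = 0.0588 from limma). Depth, inferred from the steps in the FPKM values as covered bases, was 4.98 to 6.28 Gb in *Gdpd3*+/+ and 2.13 to 3.64 Gb in *Gdpd3*-/- libraries. At these depths each member was covered by the equivalent of 453 to 10075 reads of 150 bases per library. All 8 LT stem cell markers examined, among them *Kit*, *Ly6a* and *Slamf1*, were detected in every library. *Cd48*, whose product the sort excludes, had 39.8 to 44.8 FPKM in *Gdpd3*+/+ and 51.6 to 92.2 in *Gdpd3*-/- libraries. Transcripts of 6 neutrophil markers summed to 19711 to 20760 FPKM in *Gdpd3*+/+ and 5544 to 8314 in *Gdpd3*-/- libraries, and those of 6 plasma cell markers to 2295 to 2938 and 1050 to 1912. For 10 skeletal muscle markers the sums were 845 to 1252 and 2077 to 15667, lowest of the *Gdpd3*-/- libraries in replicate 7. The 5 erythroid markers summed to 774 to 1278 and 448 to 1273, and *Cd8a*, one of 8 genes whose products the sort excludes, was at most 0.0012 FPKM in any library. *Flt3*, which encodes CD135 and is likewise sorted against, had 9.80 to 11.01 and 36.8 to 46.5 FPKM. Over genes averaging 1 FPKM or more, the *Gdpd3*+/+ libraries correlated with each other at Pearson's r of 0.973 to 0.979 across genes, which are not independent replicates. *Gdpd3*-/- replicates 5 and 6 stood apart, at 0.808 with each other and 0.799 to 0.840 with *Gdpd3*+/+ libraries, while replicate 7 reached 0.930 to 0.933 with the latter. The part of these library differences and of other cells in the results below was not tested. In sorted bulk RNA, fewer cells of a type and less RNA per cell cannot be told apart.

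In LT-CML stem cells none of the 10 regulators passed the test between the genotypes, and the difference that came nearest was a higher level of *Dnmt3a* in *Gdpd3*-/- cells. Mean *Dnmt3a* FPKM was 1.80 times that of *Gdpd3*+/+ cells, *Tet3* 1.41 times and *Tet1* 1.28 times. The other 7 members had mean ratios between 0.823 (*Dnmt1*) and 1.12 (*Ezh2*). In limma, with p-values adjusted over the 24689 genes by Benjamini and Hochberg's method, 0 of 10 members had an adjusted p under 0.05 and 1 (*Dnmt3a*) had an unadjusted p under 0.05, a smaller share than the 22.2% of all genes tested. Of all genes tested, 1.09% were called higher and 0.616% lower in *Gdpd3*-/- cells. In 4 members (*Dnmt3a*, *Tet1*, *Tet3* and *Ezh2*) every *Gdpd3*-/- library lay above every *Gdpd3*+/+ library, a pattern shown by 23.5% of all genes tested. In 0 members did every *Gdpd3*-/- library lie below, against 8.27% of all genes. The median log2 fold change of the members was 0.00088, beside 0.24 for all genes, on the log2(FPKM + 0.1) scale. The median of all genes was 0.064 after TMM scaling and −0.0063 after quantile normalization, so each member is also read against that shift.

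**Figure D1:**
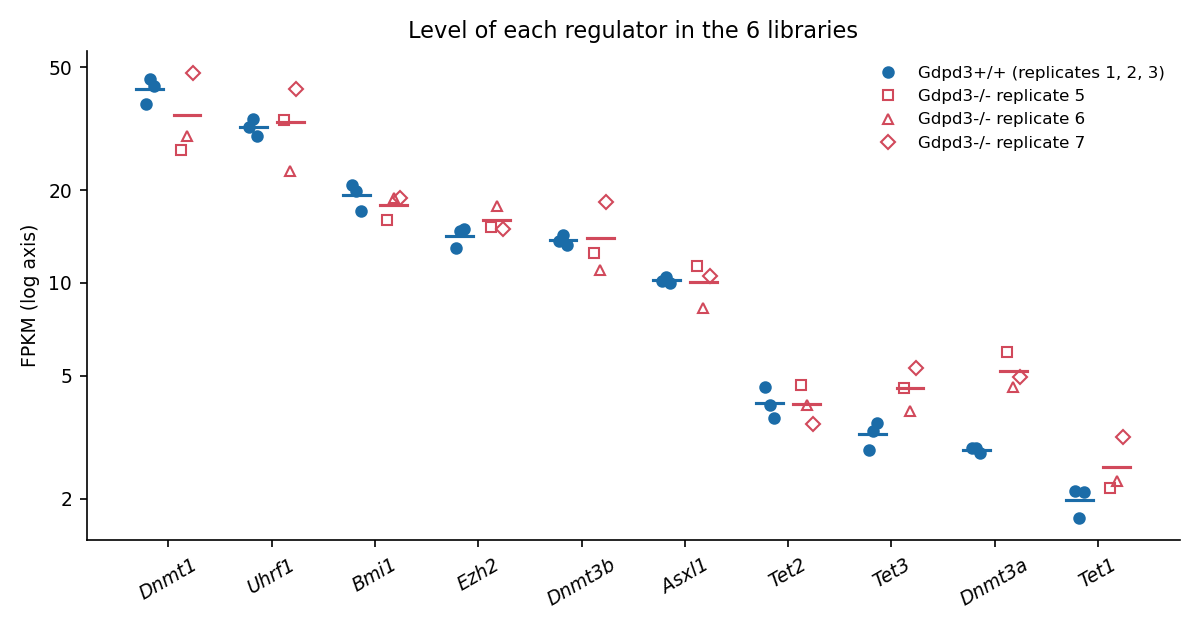
FPKM of the 10 regulators (log axis) in each *Gdpd3*+/+ library (filled circles) and each *Gdpd3*-/- library (open symbols by replicate), with horizontal bars at the group means and genes ordered by their *Gdpd3*+/+ mean. The *Gdpd3*-/- symbols of *Dnmt3a* (4.59 to 5.97 FPKM) lie above its *Gdpd3*+/+ symbols (2.80 to 2.92), while those of *Dnmt1*, *Uhrf1* and *Dnmt3b* spread to both sides, with replicate 7 highest.

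The maintenance pair *Dnmt1* and *Uhrf1* had the highest levels of the members in both genotypes. *Dnmt1* FPKM was 37.9, 45.7 and 43.6 in the *Gdpd3*+/+ libraries, and 27.0, 29.9 and 47.9 in *Gdpd3*-/- replicates 5, 6 and 7. *Gdpd3*-/- replicates 5 and 6 were thus below every *Gdpd3*+/+ library and replicate 7 was above them all. The log2 fold change of *Dnmt1* was −0.32 (95% interval −0.85 to 0.21, adjusted p = 0.430 from limma). Without *Gdpd3*-/- replicate 7 it was −0.57, and *Dnmt1* was then called lower (adjusted p = 0.0382 from limma). Without replicate 5 or 6 it was −0.16 or −0.23. In that fit of 5 libraries, with fewer libraries of 1 group, 4.36% of 24056 genes were called lower and 9.83% higher, so a call there is common.

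*Uhrf1*, which reads hemimethylated CpG sites, had 31.9, 34.0 and 29.9 FPKM in *Gdpd3*+/+ and 33.8, 23.0 and 42.5 in *Gdpd3*-/- replicates 5, 6 and 7. The *Gdpd3*-/- libraries lay on both sides of the *Gdpd3*+/+ range, and their coefficient of variation was 29.5% against 6.41%. Its log2 fold change was 0.011 (95% interval −0.52 to 0.54, adjusted p = 0.980 from limma). The ratio of *Dnmt1* to *Uhrf1* within a library, taken on FPKM + 0.1 as for all ratios here, was 1.19, 1.35 and 1.46 in *Gdpd3*+/+, and 0.798, 1.30 and 1.13 in *Gdpd3*-/- libraries. These ranges overlapped (two-sided exact permutation test, p = 0.2, adjusted p = 0.467 over 7 ratios).

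*Dnmt3a* and *Dnmt3b* are the de novo methyltransferases, and neither passed the test. *Dnmt3a* FPKM was 2.91, 2.92 and 2.80 in *Gdpd3*+/+ and 5.97, 4.59 and 4.96 in *Gdpd3*-/- replicates 5, 6 and 7. The 3 *Gdpd3*+/+ libraries were close together and well below every *Gdpd3*-/- library. Mean FPKM was 2.88 ± 0.0676 in *Gdpd3*+/+ and 5.17 ± 0.718 in *Gdpd3*-/- cells (SD, n = 3 each), with p = 0.1 in the two-sided exact permutation test. No smaller p is possible with 3 libraries a group. The log2 fold change was 0.82 (standard error 0.19, 95% interval 0.37 to 1.26), with an unadjusted p of 0.00377 and an adjusted p of 0.0812 from limma. It was 0.63 with TMM scaling and 0.60 with quantile normalization, above the median of all genes under each. *Dnmt3a* was called in 1 of the 14 alternative fits, the one without *Gdpd3*-/- replicate 7 (adjusted p = 0.0493 from limma), and reached an adjusted p of 0.314 without *Gdpd3*+/+ replicate 3. Its log2 fold change was 0.71 without *Gdpd3*-/- replicate 5 and 0.90 without replicate 6.

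*Dnmt3b*, the other de novo enzyme, had 13.6, 14.3 and 13.3 FPKM in *Gdpd3*+/+ and 12.5, 11.1 and 18.3 in *Gdpd3*-/- replicates 5, 6 and 7. Again replicate 7 was the highest of all and replicates 5 and 6 the lowest. Its log2 fold change was −0.0093 (95% interval −0.48 to 0.47, adjusted p = 0.981 from limma). The ratio of *Dnmt3a* to *Dnmt3b* within a library, which does not move with the scaling of that library, was 0.219, 0.210 and 0.216 in *Gdpd3*+/+. In *Gdpd3*-/- replicates 5, 6 and 7 it was 0.480, 0.421 and 0.274, above every *Gdpd3*+/+ library. The mean log2 ratio differed by 0.83 (p = 0.1 in a two-sided exact permutation test, adjusted p = 0.467 over 7 ratios). *Dnmt3b* transcripts nevertheless stayed more abundant than those of *Dnmt3a* per length in all 6 libraries.

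**Figure D2:**
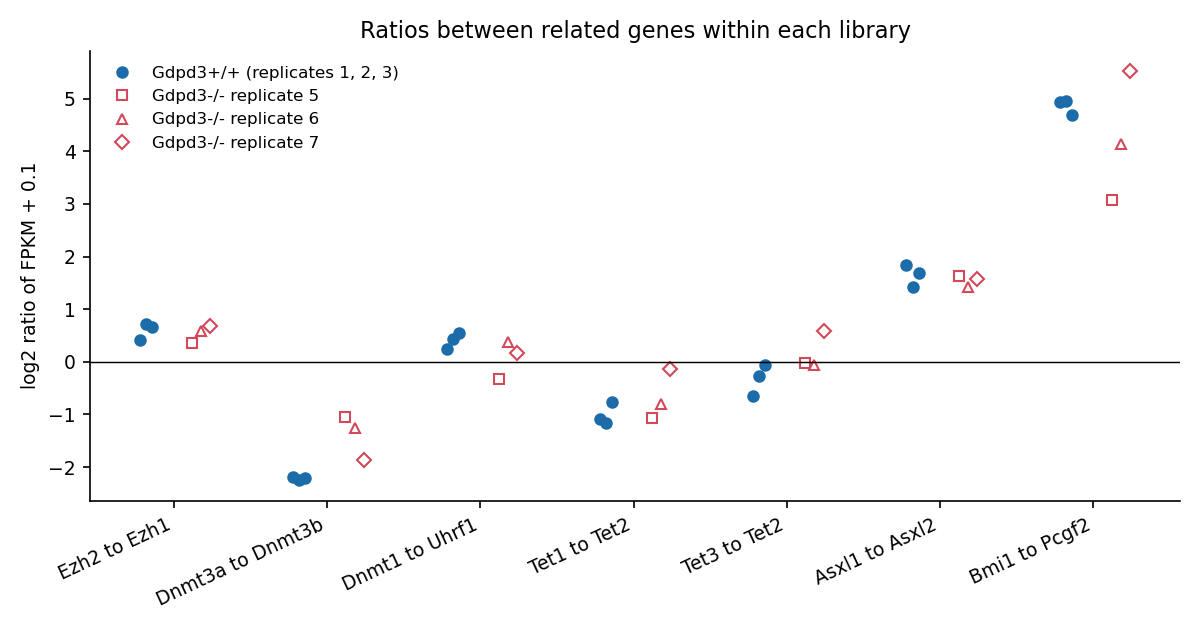
Log2 ratio of FPKM + 0.1 between related genes within each library, with *Gdpd3*+/+ libraries as filled circles and *Gdpd3*-/- libraries as open symbols by replicate, and a line at equal levels. The groups are apart for *Dnmt3a* to *Dnmt3b* (mean difference 0.83) and overlap for the other 6 ratios.

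Length and stray signal were looked at beside the *Dnmt3a* result, since its gene model is long. Among the 1042 genes with a length of 8000 bases or more and a mean FPKM of at least 1, the median log2 fold change was 0.047, and 95.1% of them lay below *Dnmt3a*. Among the 483 of these at 2 to 6 FPKM, 94.8% lay below *Dnmt3a* and 82.8% below *Tet3*. Olfactory and vomeronasal receptor genes, silent in most tissues, had a mean FPKM over 1435 genes of 0.00614 to 0.00758 in *Gdpd3*+/+ and 0.0452 to 0.123 in *Gdpd3*-/- libraries. That signal was thus higher in *Gdpd3*-/- libraries, beside *Dnmt3a* group means of 2.88 and 5.17 FPKM. Its part in the *Dnmt3a* difference was not tested.

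Of the Tet dioxygenases, *Tet3* and *Tet1* had higher means in *Gdpd3*-/- cells and *Tet2* a mean ratio of 0.993, and none passed the test. *Tet3* FPKM was 2.88, 3.31 and 3.50 in *Gdpd3*+/+ and 4.57, 3.85 and 5.28 in *Gdpd3*-/- replicates 5, 6 and 7. The groups did not overlap, but the lowest *Gdpd3*-/- value was close to the highest *Gdpd3*+/+ value. The log2 fold change was 0.48 (standard error 0.20, 95% interval −0.0090 to 0.97, adjusted p = 0.230 from limma). It was 0.29 with TMM scaling and 0.26 with quantile normalization, and *Tet3* was not called in any of the 14 alternative fits.

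*Tet1*, the least abundant member, had 2.11, 1.73 and 2.11 FPKM in *Gdpd3*+/+ and 2.16, 2.28 and 3.16 in *Gdpd3*-/- libraries. The gap between the groups was narrow and replicate 7 again the highest. Its log2 fold change was 0.33 (95% interval −0.29 to 0.95, adjusted p = 0.492 from limma), and −0.031 with quantile normalization. *Tet2*, the Tet gene most often mutated in human myeloid disease, had 4.60, 4.01 and 3.66 FPKM in *Gdpd3*+/+ and 4.67, 4.03 and 3.49 in *Gdpd3*-/- libraries. The ranges of *Tet2* were nearly the same, with a log2 fold change of −0.013 (95% interval −0.49 to 0.46, adjusted p = 0.974 from limma). The ratio of *Tet3* to *Tet2* was 0.633 to 0.959 in *Gdpd3*+/+ and 0.956 to 1.498 in *Gdpd3*-/- libraries (two-sided exact permutation test, p = 0.2, adjusted p = 0.467 over 7 ratios). That of *Tet1* to *Tet2* was 0.444 to 0.587 and 0.475 to 0.908 (p = 0.4 in the same exact permutation test).

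*Ezh2* and *Bmi1*, the Polycomb members, varied less among the *Gdpd3*-/- libraries than the other members. *Ezh2* FPKM was 13.01, 14.7 and 14.9 in *Gdpd3*+/+ and 15.2, 17.7 and 14.9 in *Gdpd3*-/- libraries. The groups were apart only by the distance from 14.92 to 14.94 FPKM. The log2 fold change was 0.16 (95% interval −0.14 to 0.47, adjusted p = 0.480 from limma) and −0.031 with TMM scaling. *Bmi1* had 20.8, 19.9 and 17.1 FPKM in *Gdpd3*+/+ and 16.0, 18.9 and 18.8 in *Gdpd3*-/- libraries, with overlapping ranges. Its log2 fold change was −0.11 (95% interval −0.42 to 0.21, adjusted p = 0.633 from limma). Coefficients of variation in *Gdpd3*-/- cells were 9.57% for *Ezh2* and 9.31% for *Bmi1*, against 13.9 to 32.4% for the other members.

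Ratios to the paralogues overlapped between the groups. *Ezh2* exceeded *Ezh1*, the PRC2 enzyme of less dividing cells, 1.33 to 1.65 times in *Gdpd3*+/+ and 1.28 to 1.596 times in *Gdpd3*-/- libraries (two-sided exact permutation test, p = 0.6). *Bmi1* exceeded its paralogue *Pcgf2* 25.7 to 30.9 times in *Gdpd3*+/+ libraries. In *Gdpd3*-/- replicates 5, 6 and 7 the ratio of *Bmi1* to *Pcgf2* was 8.46, 17.6 and 45.9, on both sides of that range (exact permutation test, p = 0.6), and *Pcgf2* itself was low at 0.312 to 1.80 FPKM. *Asxl1*, the partner of Bap1, had 10.1, 10.5 and 9.999 FPKM in *Gdpd3*+/+ and 11.3, 8.27 and 10.5 in *Gdpd3*-/- libraries. Its *Gdpd3*-/- libraries lay around the *Gdpd3*+/+ range, with a log2 fold change of −0.034 (95% interval −0.40 to 0.34, adjusted p = 0.908 from limma). The ratio of *Asxl1* to *Asxl2* was 2.68 to 3.60 in *Gdpd3*+/+ and 2.67 to 3.08 in *Gdpd3*-/- libraries (exact permutation test, p = 0.4).

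**Figure D3:**
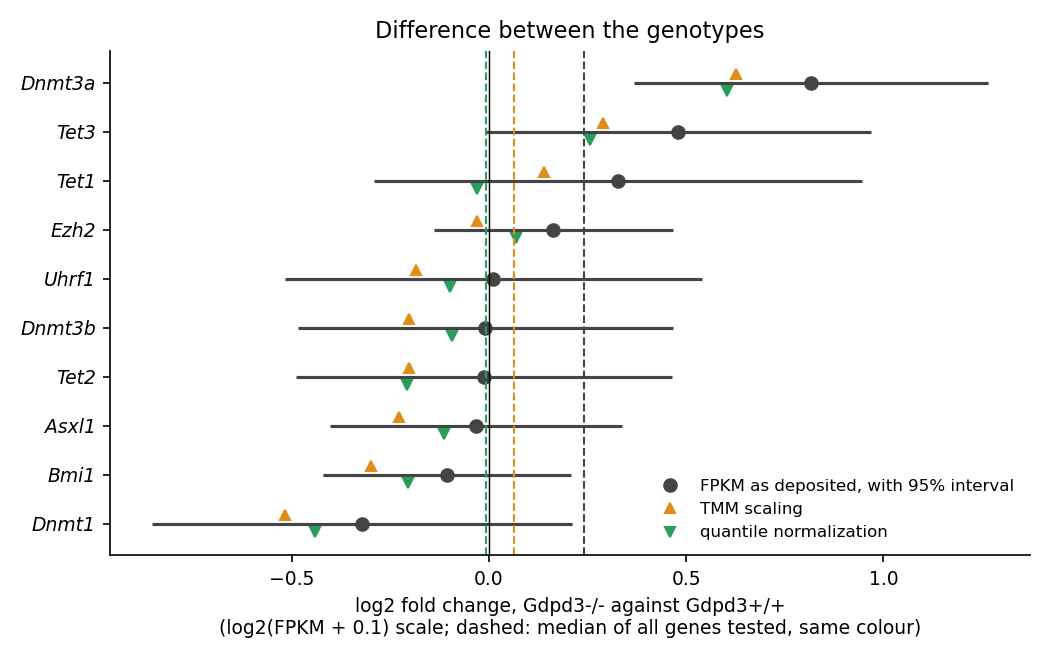
Log2 fold change of each regulator between *Gdpd3*-/- and *Gdpd3*+/+ libraries on FPKM as deposited (circles, with 95% intervals from limma), after TMM scaling and after quantile normalization (triangles), with dashed lines at the median of all genes under each. The interval of *Dnmt3a* (0.37 to 1.26) is the only one above 0, and it lies above the median of all genes, 0.24.

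In order of level per length, *Gdpd3*+/+ cells ran *Dnmt1*, *Uhrf1*, *Bmi1*, *Ezh2*, *Dnmt3b*, *Asxl1*, *Tet2*, *Tet3*, *Dnmt3a* and *Tet1*, from a mean of 42.4 down to 1.98 FPKM. Neighbouring genes overlapped over the 3 libraries for *Ezh2* and *Dnmt3b* and for *Tet3* and *Dnmt3a*. In *Gdpd3*-/- cells the first 6 places were the same and *Dnmt3a* moved from rank 9 to rank 7, above *Tet3* and *Tet2*, with which it overlapped. There the neighbours *Dnmt1* and *Uhrf1*, *Bmi1* and *Ezh2*, and *Dnmt3b* and *Asxl1* also overlapped, so that order is less sharp. Summed over the 10 members, FPKM was 140 to 151 in *Gdpd3*+/+ and 133, 124 and 170 in *Gdpd3*-/- replicates 5, 6 and 7.

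Beyond the members, 19 genes that work with DNA methylation were read from the same fit, and 0 of the 18 tested were called. *Tdg*, the glycosylase that excises oxidised methylcytosine, had 13.1 to 14.7 FPKM in *Gdpd3*+/+ and 7.80 to 11.8 in *Gdpd3*-/- libraries (log2 fold change −0.58, adjusted p = 0.133 from limma). The groups of *Tdg* did not overlap. *Idh1*, which makes the 2-oxoglutarate that Tet enzymes use, had 36.1 to 39.5 and 19.9 to 33.4 FPKM (log2 fold change −0.47, adjusted p = 0.233 from limma). The related gene *Idh2* went the other way and was more abundant, with 102 to 115 and 119 to 148 FPKM (log2 fold change 0.33, adjusted p = 0.158 from limma). *Uhrf2*, the paralogue of *Uhrf1*, had 9.91 to 11.4 and 12.5 to 14.8 FPKM (adjusted p = 0.158 from limma). *Ung*, a uracil glycosylase, had 1.33 to 1.43 and 1.57 to 2.61 FPKM. *Hells*, a remodeller needed for DNA methylation, had 8.45 to 9.27 and 5.15 to 8.49 FPKM, and *Dnmt3l*, a cofactor of the de novo enzymes, 0.253 to 0.494 and 0.293 to 1.30. Of the 18, 6 lay above and 4 below the *Gdpd3*+/+ range in every *Gdpd3*-/- library (23.5% and 8.27% over all genes), and the median log2 fold change was −0.047 beside 0.24 for all genes.

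Among Polycomb genes, *Cbx6* rose. This PRC1 subunit, which reads methylated lysine 27 of histone H3, had 9.01, 8.40 and 7.43 FPKM in *Gdpd3*+/+ and 17.96, 14.7 and 15.7 in *Gdpd3*-/- libraries. The difference was 0.95 on the log2 scale (standard error 0.14, adjusted p = 0.0365 from limma). *Cbx6* was the only PRC1 gene called of 19 tested, where 1.09% of all genes were called higher. Of the 19, 6 lay above and 1 below the *Gdpd3*+/+ range in every *Gdpd3*-/- library (23.5% and 8.27% over all genes). *Cbx6* lost the call in 8 of the 14 alternative fits, among them TMM scaling and each fit without 1 *Gdpd3*+/+ library. *Cbx8*, a paralogue, had 1.14 to 1.82 and 3.23 to 5.91 FPKM (log2 fold change 1.41, adjusted p = 0.0795 from limma). *Phc1*, a further PRC1 subunit, had 3.32 to 3.81 and 4.59 to 7.23 FPKM, and *Kdm2b*, which brings PRC1 to CpG islands, 2.62 to 3.54 and 3.69 to 5.67. *Yaf2*, of PRC1 forms without a Cbx subunit, had 34.1 to 34.5 and 20.2 to 26.5 FPKM (log2 fold change −0.53, adjusted p = 0.0841 from limma). The catalytic subunits of PRC1 overlapped between groups, *Rnf2* with 28.9 to 31.0 and 20.3 to 31.5 FPKM and *Ring1* with 3.12 to 3.83 and 3.79 to 4.72.

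Of 10 further PRC2 genes 0 were called. *Suz12*, a core subunit, had 9.67 to 10.5 FPKM in *Gdpd3*+/+ and 5.53 to 9.05 in *Gdpd3*-/- libraries (log2 fold change −0.47, adjusted p = 0.233 from limma). *Eed*, the other core subunit, had 37.5 to 39.5 and 28.5 to 48.5 FPKM, with replicate 7 highest. Of the accessory subunits, *Phf1* lay above the *Gdpd3*+/+ range (5.15 to 5.98 against 7.01 to 9.28 FPKM), and *Aebp2* and *Phf19* lay below it, at 4.23 to 5.60 and 1.52 to 1.65 FPKM. Their adjusted p-values were 0.128, 0.379 and 0.409 from limma. In the list of the Asxl and Bap1 complex, 0 of 10 were called. *Bap1* itself had 35.5 to 39.5 and 40.3 to 48.7 FPKM, and *Kdm1b*, a histone demethylase, 2.34 to 3.60 and 3.81 to 7.31. Median log2 fold changes were −0.023 for PRC2, 0.29 for PRC1 and 0.22 for the Asxl and Bap1 list, beside 0.24 for all genes.

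Of 21 other chromatin genes known from leukaemia, 0 were called, while 9 had every *Gdpd3*-/- library above and 1 every one below the *Gdpd3*+/+ range, against 23.5% and 8.27% of all genes. *Crebbp*, a histone acetyltransferase, had 5.05 to 5.80 and 7.99 to 10.7 FPKM (log2 fold change 0.75, adjusted p = 0.0758 from limma). *Kmt2d*, a histone H3 lysine 4 methyltransferase, had 2.18 to 2.45 and 3.79 to 5.39 FPKM (log2 fold change 0.86, adjusted p = 0.0961 from limma). *Men1*, a partner of such methyltransferases, had 13.1 to 15.6 and 16.2 to 28.0 FPKM. The cohesin subunit *Stag2* lay below, with 23.3 to 25.7 and 11.4 to 17.97 FPKM (log2 fold change −0.67, adjusted p = 0.110 from limma). The median of the 21 was 0.20.

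**Figure D4:**
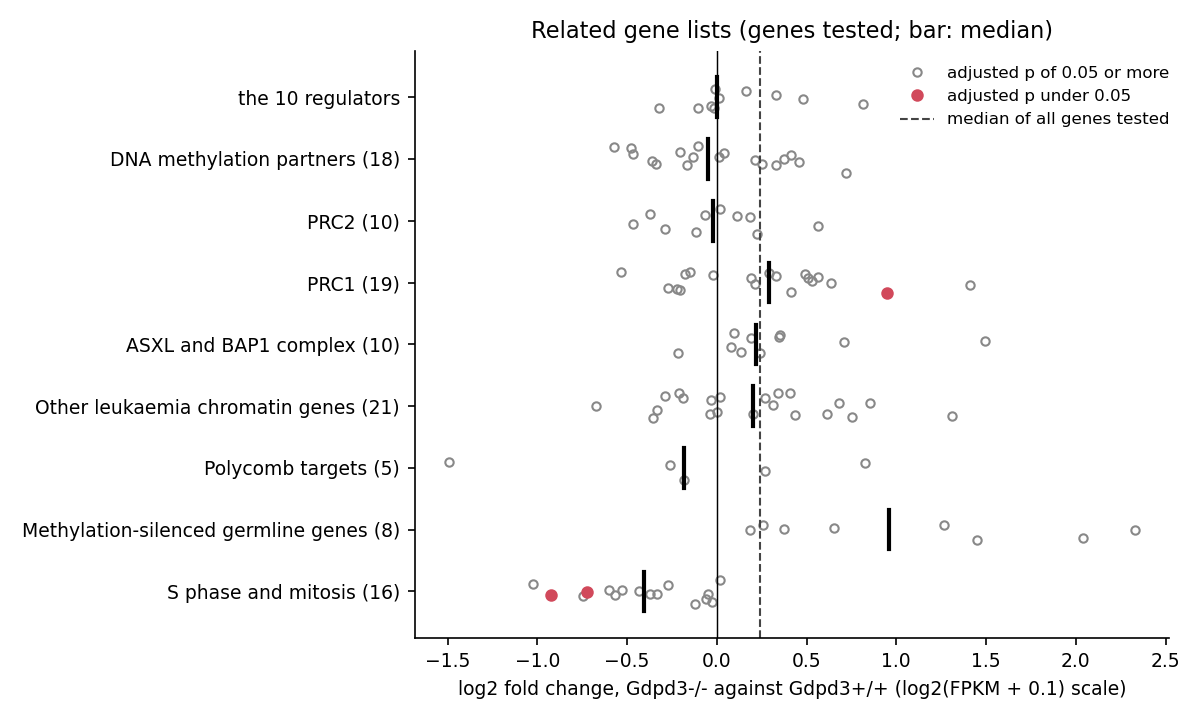
Log2 fold change between *Gdpd3*-/- and *Gdpd3*+/+ libraries of the 10 regulators and of each related list (genes tested in parentheses), 1 point per gene, with black bars at the list medians and a dashed line at the median of all genes (0.24). Filled points mark the 3 genes with an adjusted p under 0.05, *Cbx6* above 0 and *Rrm2* and *Cdk1* below 0.

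Genes of S phase and mitosis, with which *Dnmt1*, *Uhrf1* and *Ezh2* are known to be expressed, included 2 that fell. *Rrm2*, a subunit of ribonucleotide reductase, had 88.7 to 96.6 FPKM in *Gdpd3*+/+ and 43.7 to 58.8 in *Gdpd3*-/- libraries (log2 fold change −0.93, adjusted p = 0.0334 from limma). *Cdk1*, the kinase of mitotic entry, had 45.7 to 47.8 and 26.7 to 30.9 FPKM (log2 fold change −0.72, adjusted p = 0.0315 from limma). These were the 2 genes called of 16, and 8 of the 16 had every *Gdpd3*-/- library below every *Gdpd3*+/+ library, where all genes gave 0.616% called lower and 8.27% wholly below. Among the genes not called, *Top2a* had 38.5 to 42.8 and 16.7 to 27.5 FPKM, *Ccnb1* 56.8 to 60.4 and 24.6 to 43.3, and *Mki67*, a marker of dividing cells, 17.3 to 18.4 and 10.9 to 15.0. *Aurkb*, *Ccna2* and *Mcm4* were also wholly below and not called, with log2 fold changes of −0.60, −0.57 and −0.44. The genes of the 16 that were not wholly below overlapped between the groups, with log2 fold changes from −0.37 (*Ccne2*) to 0.017 (*Tyms*). Among these, *Mcm7* was at −0.048 and *Cdc6* at −0.025. The median log2 fold change of the 16 was −0.40, and −0.60 and −0.54 after TMM scaling and quantile normalization. No gene of the list was called with no intensity trend or without any single *Gdpd3*+/+ library, or without *Gdpd3*-/- replicate 5, and 6 were called without *Gdpd3*-/- replicate 7. *Uhrf1* and *Ezh2*, at 0.011 and 0.16, lay above the median of that list and *Dnmt1*, at −0.32, near it.

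Genes that these regulators are known to keep silent were mostly low in both genotypes. *Cdkn2a*, the cell cycle inhibitor locus repressed by Bmi1, had at most 0.0697 FPKM in any library and was too low to be tested. Of 11 known Polycomb targets in the table, 5 were tested and 0 called, and *Cdkn1a*, which encodes p21, had 5.37 to 6.71 and 8.04 to 13.2 FPKM (log2 fold change 0.83, adjusted p = 0.108 from limma). Of 15 germline genes silenced by promoter methylation in other cells, 8 were tested and 0 called. Median log2 fold changes were −0.18 over the 5 Polycomb targets and 0.96 over the 8 germline genes, the latter 0.50 after quantile normalization. Summed over these 15, FPKM was 2.12 to 3.19 in *Gdpd3*+/+ and 4.798 to 9.62 in *Gdpd3*-/- libraries. The germline genes listed at 0 numbered 8 to 10 in *Gdpd3*+/+ and 3 to 7 in *Gdpd3*-/- libraries. The mean signal over olfactory and vomeronasal genes given above was also higher in *Gdpd3*-/- libraries. Of the *Gdpd3*-/- libraries, replicate 7 had the fewest germline genes at 0 (3) and the lowest such mean signal (0.0452 FPKM). It also had the largest share of olfactory and vomeronasal genes above 0. That share was 14.1, 16.3 and 18.5% in *Gdpd3*-/- replicates 5, 6 and 7, against 2.58 to 3.69% in *Gdpd3*+/+ libraries. The part of that signal in these sums was not tested.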

How the data were processed

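Per the submitters' processing notes, the authors trimmed paired reads of 150 bases (Trimmomatic, Trim Galore and cutadapt 1.16 are named), aligned them with STAR 2.6.1a to mm9 and counted them with featureCounts 1.6.1. The FPKM values used here were deposited by the authors for 36976 genes in 6 libraries, with gene lengths and exon positions. A second deposited table, holding the authors' own DESeq2 comparison with fold changes and p-values, was not used. FPKM times length came in whole steps in every library (tolerance 0.01), which gave the covered bases as relative depth, but read counts were not recovered, so no count model was run. The intervals given for fold changes come from limma and rest on the spread between libraries.

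A mean FPKM of 0.05 or more kept 24689 genes, whose log2(FPKM + 0.1) was fitted with limma 3.58.1 (R 4.3.3) with an intensity trend, 3 libraries against 3, two-sided, with Benjamini-Hochberg adjustment over all genes tested and a threshold of 0.05. Single levels and ratios were tested by exact permutation, two-sided, over the 20 assignments of libraries (SciPy 1.17.1). The fit was tested on simulated data. Current symbols were matched to 87.5% of identifiers. Alternatives were pseudocounts of 0.01 and 1, no filter or a minimum mean of 1 FPKM, scaling by TMM or by quantiles, a fit with array weights or without the trend, and fits without each library in turn. Named besides the members were *Gdpd3*, and from each related list the called genes, then those with the largest fold changes at 1 FPKM or more on average without overlapping groups, up to 4 a list, with 13 genes always named and the gene closest in pattern to each member. A few genes that this rule names are not reported here. *Idh1*, *Ung* and other genes follow that rule, and *Cd48*, *Flt3* and *Cd8a* come from the marker lists. *Idh2* and some genes of S phase and mitosis are named beside the rule. The members and lists were chosen with earlier results of these data known.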

Additional observations from a re-analysis of the deposited data

How the results depend on the processing

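Over all genes, 422 were called, against 225 with a pseudocount of 1, 673 with a mean FPKM of at least 1, 153 with no intensity trend and 240 with array weights. Leaving out 1 library gave 0 (without *Gdpd3*+/+ replicate 1, where limma gave 3356 at an unadjusted p under 0.05) to 3413 calls (without *Gdpd3*-/- replicate 7), with 1, 21 and 187 without *Gdpd3*+/+ replicates 2 and 3 and *Gdpd3*-/- replicate 5. The split of 270 higher and 152 lower became 118 and 232 with TMM scaling and 119 and 206 with quantile normalization. Among the members 0 were called in 13 of 14 alternatives, and leaving out 1 library gave 0 to 2 calls, the 2 being *Dnmt3a* higher and *Dnmt1* lower without *Gdpd3*-/- replicate 7.

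Members with fold changes near 0 changed sign without being called. *Dnmt3b* was at 0.081 with array weights, 0.019 without *Gdpd3*+/+ replicate 2, and 0.051 and 0.14 without *Gdpd3*-/- replicates 5 and 6, with a range from −0.22 over the fits without 1 library. *Uhrf1* was at −0.18 with TMM scaling, −0.099 with quantile normalization, −0.036 without *Gdpd3*+/+ replicate 3, and −0.026 and −0.19 without *Gdpd3*-/- replicates 5 and 7, with up to 0.25 without replicate 6. *Tet2* was at 0.073 without *Gdpd3*+/+ replicate 1 and 0.089 without *Gdpd3*-/- replicate 7, and *Asxl1* at 0.0051 with array weights and 0.099 without *Gdpd3*-/- replicate 6. Their lowest values without 1 library were −0.12 and −0.13, both without *Gdpd3*-/- replicate 5. *Tet1* was at −0.031 with quantile normalization and *Ezh2* at −0.031 with TMM scaling. The *Ezh2* to *Ezh1* difference was 0.029 without *Gdpd3*-/- replicate 5. Over all 7 ratios, the fits without 1 library ran from −1.25 for *Bmi1* to *Pcgf2* to 1.06 for *Dnmt3a* to *Dnmt3b*, both without *Gdpd3*-/- replicate 7. *Dnmt3a* stayed between 0.60 and 0.90 and *Tet3* between 0.26 and 0.59 in all 14 alternatives. The causes of these changes were not tested here. No paired analysis was possible because replicate numbers of the genotypes do not overlap. With 3 libraries a group no single-gene exact p can fall below 0.1, and depth was lower in all 3 *Gdpd3*-/- libraries.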

Other observations

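For 9 of the 10 members, the gene most like it in pattern was sought among 93 genes of the related lists with a mean FPKM of at least 1, by Pearson's r of log2(FPKM + 0.1) over the 6 libraries. These values are descriptions without a test, and they take in the genotype difference and the depth that the libraries share. *Dnmt3a* was closest to *Cbx6* (r = 0.988, Spearman's rho 0.943) and *Tet3* to *Phc2* (0.977 and 0.943), both genes of PRC1. *Dnmt1* was closest to *Ccne2*, a cyclin of S phase entry (0.968 and 0.943), and *Uhrf1* to the cohesin gene *Smc1a* (0.982 and 0.943). *Dnmt3b* was closest to the PRC1 gene *Cbx2* (0.948 and 0.886) and *Ezh2* to *Foxk2* (0.949 and 0.943). The best matches of *Tet1* with *Ung* (0.890 and 0.714), *Bmi1* with *Hells* (0.766 and 0.771) and *Tet2* with *Ep300* (0.719 and 0.886) were looser.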
